A study of Mus musculus with 9 samples.

Results

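Collagen chain genes encode the polypeptides that assemble as trimers into collagen triple helices. They were taken as every protein-coding gene whose symbol in the GRCm38 annotation is Col, a number, the letter a and a number, which gave 44 genes of the 49671 listed. By structural class, 11 encode fibrillar chains, 9 network chains, 6 chains of beaded filaments and 18 other chains; these 18 are 9 FACITs (collagens that attach to fibrils), 4 transmembrane collagens, 2 multiplexins and 3 others. Reads per gene were counted in 9 RNA-seq libraries of polyadenylated RNA from mouse left ventricle. The mutant genotype is labelled as a knockout of dSG, the usual short name of delta-sarcoglycan (gene Sgcd), a membrane protein of the dystrophin-glycoprotein complex of muscle, whose loss causes cardiomyopathy in mice. Ifetroban blocks the thromboxane-prostanoid receptor. The groups were knockout (KO) mice given ifetroban (3 libraries), KO mice given vehicle (2), wild-type (WT) mice given ifetroban (2) and WT mice given vehicle (2). The labels give no age, sex, dose, duration or allele, and do not say whether each library came from a separate animal, so each p-value speaks to the spread among these libraries, part of which may be technical.

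Fibrillar collagens I, III and V form the tensile fibrils of the heart's interstitium and are made mainly by fibroblasts. Network collagen IV is the scaffold of the basement membranes around cardiomyocytes and vessels, and collagen VI forms beaded filaments that link the basement membrane to the fibrils. An increase of fibrillar collagen between muscle cells is the defining feature of cardiac fibrosis.

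Depth was 21299748 to 31394548 reads in genes per library. The targeted gene Sgcd had 9.77, 16.4 and 18.5 CPM (counts scaled to library size) in KO ifetroban and 7.49 and 12.1 CPM in KO vehicle, against 33.1 and 31.2 CPM in WT ifetroban and 11.1 and 28.9 CPM in WT vehicle. The 11.1 CPM belong to the library labelled WT vehicle replicate 1, which for Sgcd lay within the KO range in spite of its label. That library was kept, and results were also computed without it. Long transcripts were read low in 4 libraries (KO ifetroban replicate 1, both KO vehicle libraries and the library labelled WT vehicle replicate 1) and high in the other 5. These 4 libraries also had the 4 lowest values of Sgcd. Among the other 5, Sgcd was at 16.4 and 18.5 CPM in KO and 28.9 to 33.1 CPM in WT. The part of the length trend in the Sgcd values was not tested. KO vehicle replicate 1 also stood apart in markers of liver, whose 6 genes summed to 84.2 CPM there and to 1.27 to 8.13 CPM in the other libraries.

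Of the 44 genes, 32 passed the filter on low counts and were tested: 8 fibrillar, 8 network, 4 beaded-filament and 12 other. The 12 that failed the filter were Col2a1, Col11a1, Col24a1, Col10a1, Col6a4, Col6a5, Col17a1, Col19a1, Col26a1, Col9a1, Col9a2 and Col9a3, with 0 (Col9a1) to 38 (Col26a1) reads over all libraries. Several of these, such as Col2a1, Col9a1, Col10a1 and Col11a1, are known for cartilage. Col25a1, a transmembrane collagen, passed the filter on low counts only through WT libraries, so a difference was built into its selection.

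Per length, the collagen IV chains Col4a1 and Col4a2 had the highest mean levels. The RPKM scale is CPM divided by the gene's exon length in kilobases, which here joins all annotated exons and not those of 1 transcript. On it, Col4a1 averaged 76.1 and Col4a2 67.9 over all libraries, followed by Col3a1 at 38.8, Col1a1 at 33.0, Col6a1 at 20.9, Col15a1 at 18.3 and Col1a2 at 17.2. The order depends on these lengths: Col1a1 had 49353 reads over 6563 bases and Col1a2 48451 reads over 12426 bases. The means of Col4a1, Col4a2, Col3a1 and Col1a1 were 85.4, 76.0, 50.9 and 41.9 RPKM in KO and 64.5, 57.8, 23.6 and 22.0 RPKM in WT. In KO vehicle replicate 2, Col3a1 at 56.8 RPKM was above Col4a1 at 55.6 and Col4a2 at 49.0 RPKM, and in the other 8 libraries both collagen IV chains were above Col3a1. Ranges of neighbours in this order overlapped: Col4a1 lay between 42.9 and 141 RPKM, Col3a1 between 16.2 and 57.4 RPKM and Col1a1 between 17.2 and 45.5 RPKM.

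Summed over all 44 genes, collagen transcript was 319, 392 and 385 RPKM in KO ifetroban and 481 and 346 RPKM in KO vehicle, against 310 and 270 RPKM in WT ifetroban and 189 and 293 RPKM in WT vehicle. Every KO library lay above every WT library. Fibrillar chains alone summed to 108 to 150 RPKM in the 5 KO libraries, against 53.9 to 87.3 RPKM in the 4 WT libraries, again without overlap. Collagens I and III made most of this, with 89.5 to 127 RPKM in KO and 43.8 to 71.2 RPKM in WT.

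**Figure D1:**
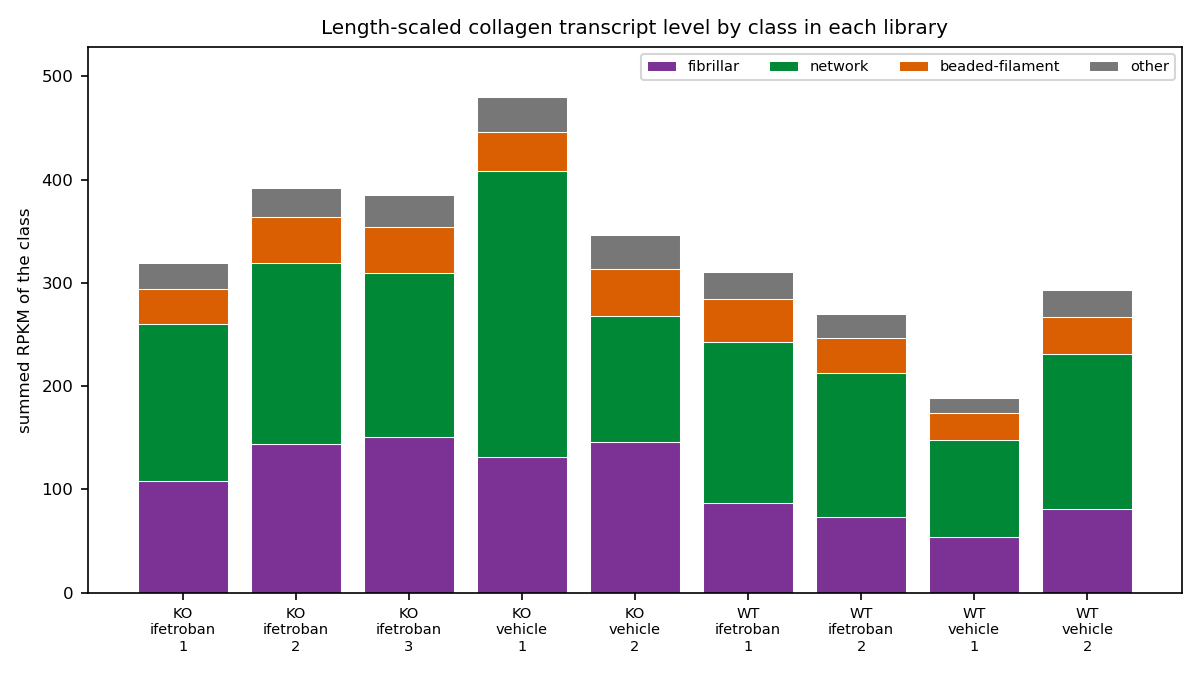
Length-scaled collagen transcript (summed RPKM, vertical axis) by structural class (stacked colours) in each of the 9 libraries, KO libraries on the left. The fibrillar segment spans 108 to 150 RPKM in KO libraries and 53.9 to 87.3 RPKM in WT libraries, and the network segment is tallest, at 277 RPKM, in KO vehicle replicate 1.

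The makeup of the collagen pool spanned a narrower range in WT than in KO, where the KO vehicle libraries held both extremes. Fibrillar chains took 33.8%, 36.7% and 39.0% of the summed RPKM in KO ifetroban and 27.4% and 42.0% in KO vehicle, against 27.3% to 28.5% in the 4 WT libraries. Network chains took 47.8%, 44.7% and 41.4% in KO ifetroban and 57.6% and 35.5% in KO vehicle, against 49.9% to 51.4% in WT. KO vehicle replicate 1 fell inside or beyond the WT range on both shares, and the other 4 KO libraries had a larger fibrillar and a smaller network share than every WT library. Over all genes tested, KO vehicle replicate 1 had the highest CPM of all libraries for 26.9% and the lowest for 26.7%. Shares depend on the exon lengths used. From CPM, without division by length, fibrillar chains took 32.3% to 48.9% in KO and 32.5% to 34.4% in WT. In bulk tissue, a change in the number of cells that make a transcript and a change in transcript per cell cannot be told apart.

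Averaged over treatments, 4 of the 32 tested collagen genes rose in KO (12.5%; edgeR quasi-likelihood test, adjusted p under 0.05), namely Col1a1, Col3a1, Col5a2 and Col8a1, and none fell. Over all 15261 genes tested, 0.505% rose in this comparison and 0.537% changed in either direction. At an unadjusted p under 0.05, 11 of 32 passed, 10 of them higher in KO, where 16.5% of all genes passed in either direction. DESeq2 called 9 as higher, adding Col1a2, Col5a1, Col8a2, Col12a1 and Col16a1, where it called 4.21% of all genes as higher. Of the 4 genes called by edgeR, 3 were among the 8 fibrillar and 1 among the 8 network genes. Of the 9 called by DESeq2, 5 were fibrillar, 2 network and 2 of the other class. The median log2 fold change was 0.61 for fibrillar, 0.15 for network, 0.28 for beaded-filament and 0.12 for other chains, beside -0.0036 for all genes tested. With 1 library left out, the network median lay between -0.014 and 0.49 and that of other chains between -0.041 and 0.40. The network median was negative without KO vehicle replicate 1 and without the library labelled WT vehicle replicate 1, and that of other chains without the second of these. Differences between the classes were not tested.

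**Figure D2:**
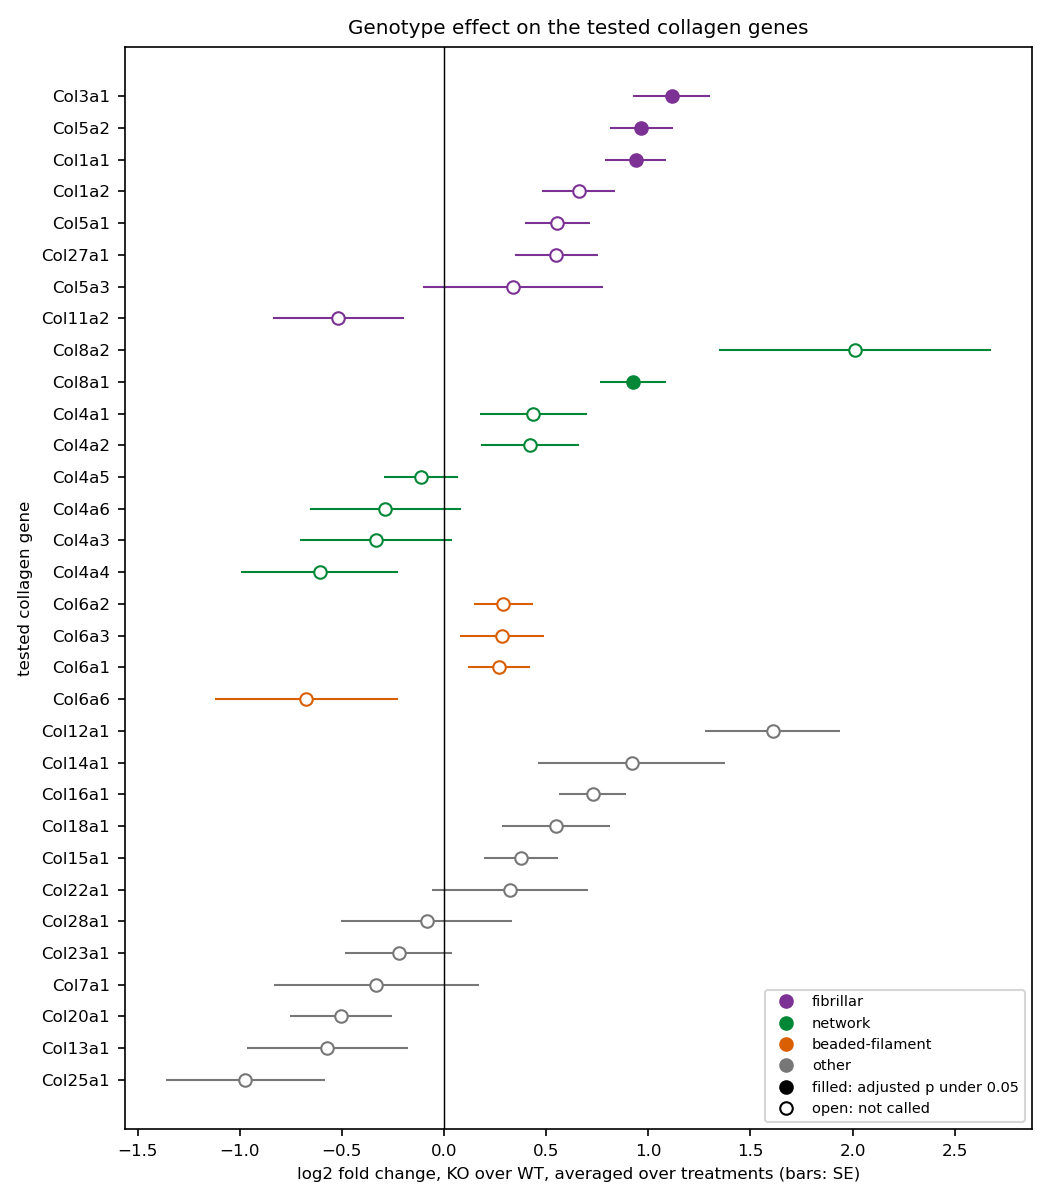
Log2 fold change of KO over WT averaged over treatments (horizontal axis, bars show the standard error) for the 32 tested collagen genes, coloured by class. Col1a1, Col3a1, Col5a2 and Col8a1 passed the threshold, and the fibrillar genes lie mostly to the right of 0 with a median of 0.61.

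Collagen I is the main tensile fibril of scar and interstitium, and its molecule joins a pair of chains from Col1a1 with a chain from Col1a2. Col1a1 (ENSMUSG00000001506, chromosome 11, 94936224 to 94953042, plus strand) had 219, 299 and 296 CPM in KO ifetroban and 265 and 297 CPM in KO vehicle, against 171 and 144 CPM in WT ifetroban and 113 and 150 CPM in WT vehicle. All KO libraries were above all WT libraries. It rose by 0.94 ± 0.15 on the log2 scale (SE; edgeR, adjusted p = 0.0432), or 1.92-fold. Col1a2 (ENSMUSG00000029661, chromosome 6, 4504814 to 4541544, plus strand) had 196, 249 and 309 CPM in KO ifetroban and 211 and 306 CPM in KO vehicle, against 196 and 161 CPM in WT ifetroban and 129 and 164 CPM in WT vehicle. The lowest KO library and the highest WT library met at 196 CPM, and the log2 fold change of 0.66 ± 0.18 did not pass (adjusted p = 0.129, edgeR).

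Collagen III mixes with collagen I in the same fibrils and is made of identical chains from Col3a1 (ENSMUSG00000026043, chromosome 1, 45311538 to 45349706, plus strand). The 250 bases before its start in the RefSeq promoter table (GRCm38.p6, chr1:45311288-45311537, plus strand) are shown because this gene had the largest fold change of the 4 called collagens. Capitals mark TATAAA, which begins 117 bases before the start.
Col3a1: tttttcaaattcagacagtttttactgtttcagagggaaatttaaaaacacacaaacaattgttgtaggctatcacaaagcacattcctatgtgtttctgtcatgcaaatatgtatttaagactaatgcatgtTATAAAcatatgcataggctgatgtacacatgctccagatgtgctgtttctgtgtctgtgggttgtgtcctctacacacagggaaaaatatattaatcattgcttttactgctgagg
Searched on both strands, TATAAA occurred in 5 of the 35 collagen genes that the table holds (14.3%) and in 12.4% of all 32841 promoters of that table. A gene was counted if any of its promoters held the motif, and the second share counts single promoters, so the units differ.

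Col3a1 had 397, 526 and 564 CPM in KO ifetroban and 454 and 557 CPM in KO vehicle, against 288 and 218 CPM in WT ifetroban and 159 and 263 CPM in WT vehicle. No KO library overlapped a WT library. The rise was 1.11 ± 0.19 on the log2 scale (edgeR, adjusted p = 0.0451), or 2.17-fold, with a 95% interval of 0.69 to 1.54.

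Collagen V starts fibrils and limits their width, and its chains come from Col5a1, Col5a2 and Col5a3. Col5a2 (ENSMUSG00000026042, chromosome 1, 45374321 to 45503282, minus strand) is the neighbour of Col3a1 on that chromosome. It had 51.4, 63.3 and 72.8 CPM in KO ifetroban and 78.3 and 65.7 CPM in KO vehicle, against 39.2 and 33.6 CPM in WT ifetroban and 27.2 and 37.6 CPM in WT vehicle. Genotypes did not overlap, and Col5a2 rose by 0.97 ± 0.15 on the log2 scale (edgeR, adjusted p = 0.0432). Col5a1 (ENSMUSG00000026837, chromosome 2, 27886425 to 28039514, plus strand), the partner of Col5a2 in the commonest form of collagen V, had 65.9, 90.5 and 93.8 CPM in KO ifetroban and 81.3 and 76.5 CPM in KO vehicle, against 68.0 and 56.0 CPM in WT ifetroban and 40.5 and 57.8 CPM in WT vehicle. KO ifetroban replicate 1, at 65.9 CPM, lay below the highest WT library, and the log2 fold change of 0.55 ± 0.16 did not pass (adjusted p = 0.145). Col5a3, a further chain, was scattered within groups, with 16.5 to 65.3 CPM in KO and 12.8 to 42.9 CPM in WT, and had a log2 fold change of 0.34 ± 0.44. The remaining tested fibrillar genes were low: Col27a1 had 4.69 to 9.63 CPM in KO and 3.72 to 4.83 CPM in WT, and Col11a2 had 0.715 to 1.87 CPM in KO and 0.920 to 2.51 CPM in WT. Their log2 fold changes were 0.55 ± 0.20 and -0.52 ± 0.32, neither called by edgeR. Col11a2 was the only tested fibrillar gene with a negative value.

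Collagen VIII, a short-chain collagen of vessel walls and of remodelling matrix, holds Col8a1 and Col8a2, and collagen IV holds the remaining 6 tested genes. Col8a1 (ENSMUSG00000068196, chromosome 16, 57624258 to 57754737, minus strand) was the called gene outside the fibrillar class, and its 250 bases before the start (RefSeq table, GRCm38.p6, chr16:57754738-57754987, minus strand) are shown for that reason. Capitals mark CCGCCC, the opposite-strand form of the GC box GGGCGG, which begins 170, 73, 66 and 23 bases before the start.
Col8a1: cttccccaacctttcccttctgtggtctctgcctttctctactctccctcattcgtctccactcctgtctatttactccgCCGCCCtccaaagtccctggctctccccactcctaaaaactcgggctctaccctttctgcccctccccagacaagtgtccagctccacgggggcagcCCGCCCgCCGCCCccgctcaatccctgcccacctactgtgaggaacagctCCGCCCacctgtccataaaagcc
On either strand GGGCGG was present in 21 of 35 collagen genes (60.0%) and in 32.7% of all promoters of the table, and the further motif CCAAT in 13 of 35 (37.1%) and in 33.9%. The first share of each pair counts genes with the motif in any promoter and the second counts single promoters. They are therefore not like for like. Such matches describe letters and do not show that a factor binds.

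Col8a1 had 55.6, 46.1 and 59.9 CPM in KO ifetroban and 88.6 and 77.3 CPM in KO vehicle, against 44.8 and 29.3 CPM in WT ifetroban and 37.6 and 29.4 CPM in WT vehicle. The KO vehicle libraries were highest, the KO ifetroban libraries lay between, and every KO library was above every WT library. It rose by 0.92 ± 0.16 on the log2 scale (edgeR, adjusted p = 0.0475), or 1.90-fold. Col8a2 (ENSMUSG00000056174, chromosome 4, 126286793 to 126314330, plus strand), its partner chain, had 0.608, 1.23 and 4.15 CPM in KO ifetroban and 1.02 and 6.31 CPM in KO vehicle, against 0.997 and 1.15 CPM in WT ifetroban and 0.411 and 0.425 CPM in WT vehicle. The 2 high values, 4.15 and 6.31 CPM, came from 1 library of each KO group, and the log2 fold change of 2.01 ± 0.67 did not pass (adjusted p = 0.194). It was 1.08 without KO vehicle replicate 2.

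Collagen IV in most basement membranes joins a pair of chains from Col4a1 with a chain from Col4a2. The genes lie head to head on chromosome 8: Col4a1 (ENSMUSG00000031502, 11198423 to 11312826, minus strand) and Col4a2 (ENSMUSG00000031503, 11312805 to 11449287, plus strand) start 21 bases apart and overlap there. Col4a1 had 546, 634 and 538 CPM in KO ifetroban and 1054 and 415 CPM in KO vehicle, against 569 and 489 CPM in WT ifetroban and 320 and 546 CPM in WT vehicle. KO vehicle replicate 1 held the highest value of all 9 libraries, the library labelled WT vehicle replicate 1 the lowest, and the other 7 lay between 415 and 634 CPM. Col4a2 followed the same order at its extremes, with 440, 502 and 461 CPM in KO ifetroban and 789 and 324 CPM in KO vehicle, against 431 and 399 CPM in WT ifetroban and 274 and 425 CPM in WT vehicle. Neither gene passed the test, with log2 fold changes of 0.44 ± 0.26 for Col4a1 and 0.42 ± 0.24 for Col4a2 (edgeR, adjusted p = 0.415 and 0.399). Without those 2 extreme libraries the values turned negative, to -0.14 for Col4a1 and -0.11 for Col4a2. Dropping the highest KO and the lowest WT value could only lower them. With 1 library left out they stayed positive, at 0.028 to 0.69 for Col4a1 and 0.033 to 0.67 for Col4a2. Within vehicle, Col4a1 was called higher in KO when no filter on low counts was applied, where 891 of 27246 genes were.

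Col4a5 (ENSMUSG00000031274, chromosome X, 141475385 to 141689234, plus strand), a minor basement membrane chain, had 32.6, 45.8 and 49.9 CPM in KO ifetroban and 29.6 and 35.9 CPM in KO vehicle, against 41.6 and 45.2 CPM in WT ifetroban and 28.8 and 46.8 CPM in WT vehicle. The genotypes overlapped throughout, with a log2 fold change of -0.11 ± 0.18. Col4a3, Col4a4 and Col4a6, the chains known from kidney glomeruli and other specialised membranes, had log2 fold changes of -0.33, -0.61 and -0.29 and did not pass. Over the 6 collagen IV genes, 2 were positive, where 49.5% of all genes tested were, and none was called.

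**Figure D3:**
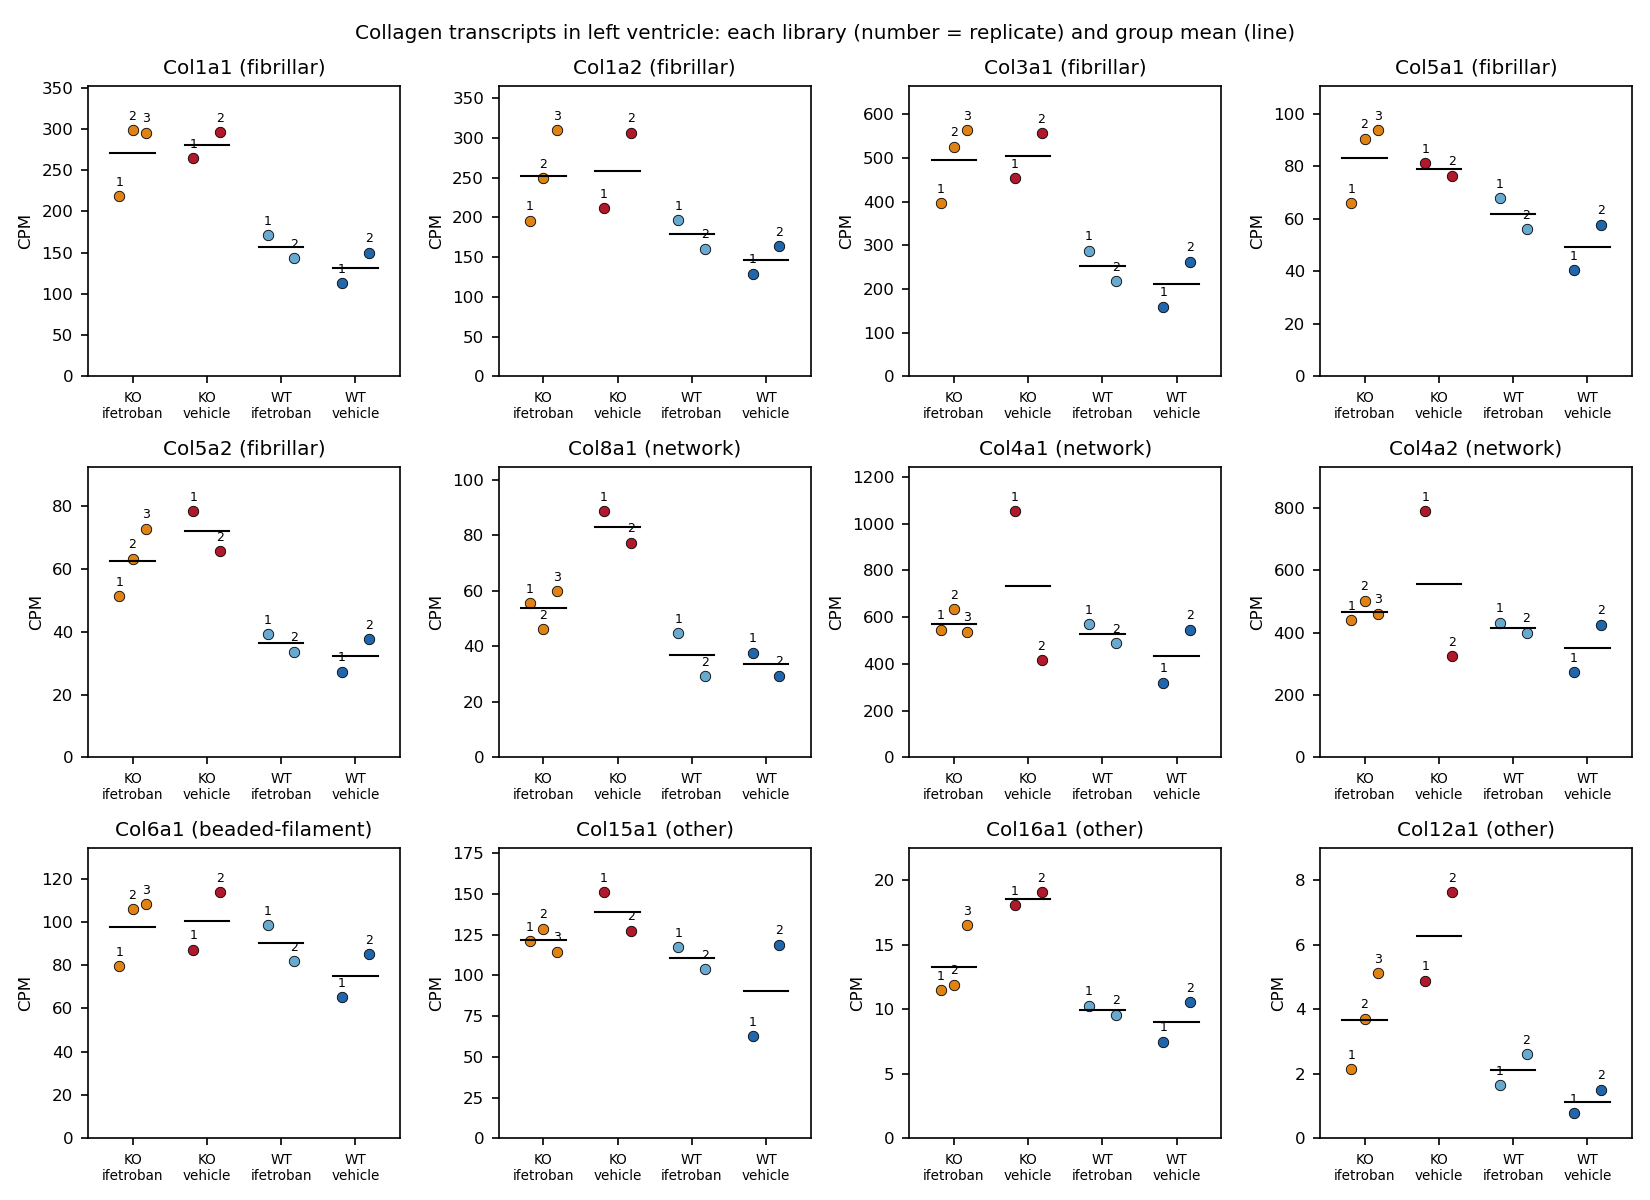
CPM (vertical axis, from 0) of selected collagen genes in each library, with KO groups left of WT groups; numbers are replicates and lines are group means. Col1a1, Col3a1, Col5a2 and Col8a1 show no overlap between KO and WT, whereas Col4a1 runs from 320 CPM in the library labelled WT vehicle replicate 1 to 1054 CPM in KO vehicle replicate 1.

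Collagen VI, the beaded-filament collagen, held no gene called by edgeR or DESeq2. Col6a1 (ENSMUSG00000001119, chromosome 10, 76708792 to 76726168, minus strand) had 79.6, 106 and 108 CPM in KO ifetroban and 87.0 and 114 CPM in KO vehicle, against 98.4 and 81.8 CPM in WT ifetroban and 65.2 and 84.9 CPM in WT vehicle. Its neighbour Col6a2 (ENSMUSG00000020241, chromosome 10, 76595762 to 76623630, minus strand) had 92.0, 115 and 117 CPM in KO ifetroban and 102 and 123 CPM in KO vehicle, against 108 and 87.1 CPM in WT ifetroban and 71.4 and 95.1 CPM in WT vehicle. Genotypes overlapped for both over all libraries, and the log2 fold changes were 0.27 ± 0.15 for Col6a1, with a 95% interval of -0.07 to 0.61, and 0.29 ± 0.14 for Col6a2, with an interval of -0.03 to 0.61. A change of the size seen for Col3a1 lay outside these intervals. Within vehicle, both genes were higher in both KO libraries than in both WT libraries, with log2 fold changes of 0.42 ± 0.23 for Col6a1 and 0.44 ± 0.21 for Col6a2. Col6a3, the longest chain of the common form, had 45.0 to 65.8 CPM in KO and 24.0 to 60.3 CPM in WT. Col6a6, an alternative to it, had 1.86 to 7.58 CPM in KO and 3.18 to 11.2 CPM in WT, with a log2 fold change of -0.67 ± 0.45; it was called lower when no filter on low counts was applied.

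Among the other chains, FACITs coat fibrils and multiplexins sit in or near basement membranes. Col12a1 (ENSMUSG00000032332, chromosome 9, 79598991 to 79718831, minus strand), a FACIT of tissue under tension, was rare, with 2.15, 3.71 and 5.12 CPM in KO ifetroban and 4.89 and 7.62 CPM in KO vehicle, against 1.65 and 2.61 CPM in WT ifetroban and 0.770 and 1.51 CPM in WT vehicle. Only KO ifetroban replicate 1 fell below the highest WT library. Its log2 fold change of 1.61 ± 0.33, the largest of the other class, missed the threshold (edgeR, adjusted p = 0.0649). Col16a1 (ENSMUSG00000040690, chromosome 4, 130047840 to 130099283, plus strand), also a FACIT, had 11.5, 11.9 and 16.5 CPM in KO ifetroban and 18.1 and 19.1 CPM in KO vehicle, against 10.3 and 9.59 CPM in WT ifetroban and 7.49 and 10.5 CPM in WT vehicle. KO and WT did not overlap, while the log2 fold change of 0.73 ± 0.16 did not pass (adjusted p = 0.0787). Col14a1, a FACIT of dense connective tissue, reached 44.7 CPM in KO ifetroban replicate 3 and 43.2 CPM in KO vehicle replicate 2, the same libraries that were high for Col8a2, and lay at 10.05 to 22.4 CPM in the other KO libraries, against 10.3 to 16.4 CPM in WT.

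Col15a1 (ENSMUSG00000028339, chromosome 4, 47208161 to 47313167, plus strand), a multiplexin of muscle and capillary basement membranes, was the most abundant of the other class per length. It had 121, 129 and 115 CPM in KO ifetroban and 151 and 127 CPM in KO vehicle, against 117 and 104 CPM in WT ifetroban and 62.5 and 119 CPM in WT vehicle. Genotypes overlapped between 115 and 119 CPM, and the log2 fold change was 0.38 ± 0.18 (adjusted p = 0.327). Col18a1, the second multiplexin, had 37.2 CPM in KO vehicle replicate 1 and 14.6 to 16.6 CPM in the other KO libraries, against 9.91 to 17.0 CPM in WT. The 3 tested transmembrane collagens, Col13a1, Col23a1 and Col25a1, had log2 fold changes of -0.57, -0.22 and -0.97, none called.

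Across all 32 genes, 5 had CPM values in every KO library above every WT library (Col1a1, Col3a1, Col5a2, Col8a1 and Col16a1), against 5.03% of all genes tested. In the other direction only Col25a1 separated the genotypes, with 0.186 to 0.337 CPM in KO and 0.359 to 0.464 CPM in WT, against 2.28% of all genes; its direction is the one its selection favoured.

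Within vehicle, no collagen gene was called between KO vehicle and WT vehicle by edgeR, where 0.0524% of all genes were. At an unadjusted p under 0.05, 14 of 32 genes passed, 12 of them higher in KO vehicle (all genes, 12.5% in either direction and 8.26% higher), and the lowest adjusted p was 0.178 (Col8a1). Those that passed as lower were Col11a2 at -1.11 ± 0.48 and Col20a1 at -0.93 ± 0.37. DESeq2 called 7 as higher, namely Col1a1, Col3a1, Col5a2, Col8a1, Col8a2, Col12a1 and Col16a1, where it called 2.13% of all genes as higher. CPM values separated 13 of 32 genes upward in KO vehicle, against 16.8% of all genes. In all, 21 of 32 fold changes were positive, where 48.5% of all genes had a positive one. The median log2 fold change was 0.82 for fibrillar, 0.26 for network, 0.43 for beaded-filament and 0.52 for other chains, and -0.01 for all genes tested. With 1 library left out, the network median lay between -0.087 (without the library labelled WT vehicle replicate 1) and 1.07 (without WT vehicle replicate 2), and that of other chains between 0.15 and 0.83. The fold change of Col12a1 was 2.43 ± 0.49 on the log2 scale, that of Col8a1 1.31 ± 0.24 and that of Col3a1 1.26 ± 0.28. Col8a2 stood at 3.13 ± 1.02 with all libraries and at 1.27 without KO vehicle replicate 2.

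Under ifetroban, the comparison of KO ifetroban with WT ifetroban gave no call among the collagens by edgeR or DESeq2, with 0.0131% of all genes called by edgeR and 0.452% by DESeq2. Here 4 genes passed an unadjusted p under 0.05, all higher in KO ifetroban (all genes, 3.85%): Col1a1 at 0.78 ± 0.20, Col3a1 at 0.97 ± 0.26, Col5a2 at 0.78 ± 0.21 and Col8a1 at 0.54 ± 0.22. CPM values separated 6 of 32 upward (all genes, 16.1%). All 8 fibrillar genes had a positive fold change (all genes, 51.8%), with a median of 0.46. The medians of network, beaded-filament and other chains were 0.05, 0.08 and -0.05, and each changed sign with 1 library left out, lying between -0.18 and 0.14, between -0.048 and 0.22 and between -0.075 and 0.11. The network median turned without KO ifetroban replicate 2 or 3, the beaded-filament median without KO ifetroban replicate 2 or WT ifetroban replicate 2, and that of other chains without KO ifetroban replicate 1 or WT ifetroban replicate 2.

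The effect of ifetroban within KO passed for no collagen gene by edgeR or DESeq2, where edgeR called 0 and DESeq2 0.0197% of all genes. At an unadjusted p under 0.05, 2 collagen genes were lower in KO ifetroban than in KO vehicle, Col8a1 at -0.62 ± 0.21 and Col16a1 at -0.48 ± 0.21, where 5.02% of all genes passed in either direction. CPM values of Col8a1, Col16a1 and Col27a1 lay lower in all KO ifetroban than in all KO vehicle libraries (3 of 32; all genes, 7.58%). The called fibrillar genes stayed near 0: the log2 fold change was -0.05 for Col1a1, with a 95% interval of -0.49 to 0.39, -0.03 for Col3a1, with an interval of -0.58 to 0.53, and -0.20 for Col5a2, with an interval of -0.66 to 0.25. These intervals leave room for a lowering of Col3a1 by a log2 value of 0.58.

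Within WT, 29 of 32 collagen genes had a positive fold change of ifetroban over vehicle, where 47.2% of all genes tested did. None was called by edgeR or DESeq2, nor was any of all genes by either, and 0 passed an unadjusted p under 0.05 (all genes, 1.26%). This direction moved with 1 library. The library labelled WT vehicle replicate 1 had the lowest CPM of all 9 libraries for 20 of 32 collagen genes, where it was lowest for 13.9% of all genes. Set against that library alone, the WT ifetroban mean was higher for 29 of 32 collagen genes; set against WT vehicle replicate 2 alone, it was higher for 13 of 32, with 50.3% for all genes. CPM values separated 5 of 32 upward (all genes, 14.9%).

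The interaction, which asks whether the effect of genotype differs between ifetroban and vehicle, gave no call among the collagens by edgeR or DESeq2 and none over all genes by either tool. At an unadjusted p under 0.05 it gave 2, both negative: Col8a1 at -0.77 ± 0.32 and Col12a1 at -1.65 ± 0.64, where 1.38% of all genes passed. Ifetroban averaged over genotypes also gave no call among the collagens by either tool, where DESeq2 called 0.00655% of all genes, and 0 at an unadjusted p under 0.05 (all genes, 5.11%).

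Because more KO than WT libraries read long transcripts low, the genotypes were also compared within each kind of library, on mean log2 CPM. Among the libraries with long transcripts low (3 KO, 1 WT), Col1a1 differed by 1.19, Col3a1 by 1.54, Col5a2 by 1.24 and Col8a1 by 0.94; the 1 WT library there is the library labelled WT vehicle replicate 1. Among those with long transcripts high (2 KO, 3 WT), the differences were 0.94, 1.096, 0.88 and 0.64 in the same order of genes. These differences have no test, and the part of the length trend in the results was not tested. Col4a1 differed by 0.96 within the first and by 0.13 within the second. The fibrillar median was 1.03 and 0.65, the network median 0.88 and 0.12, the beaded-filament median 0.53 and 0.26 and the median of other chains 0.70 and 0.02, while that of all genes was -0.02 and 0.00.

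**Figure D4:**
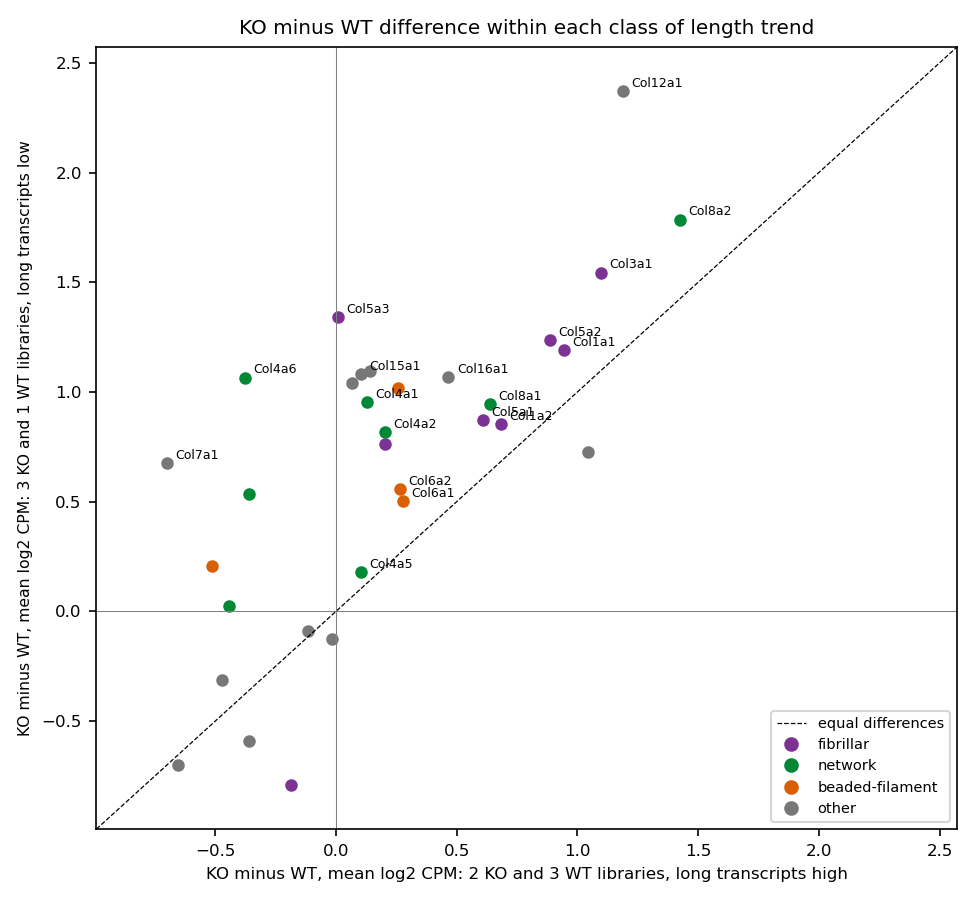
KO minus WT difference in mean log2 CPM of each tested collagen gene among libraries with long transcripts high (horizontal axis, 2 KO and 3 WT) and low (vertical axis, 3 KO and 1 WT), coloured by class. Col1a1 lies at 0.94 across and 1.19 up, Col3a1 at 1.096 across and 1.54 up, and Col4a1 at 0.13 across and 0.96 up.

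Ratios of chains within a library need no scaling for depth between libraries. They were not corrected for the length trend, and exon lengths were 6563 bases for Col1a1, 12426 for Col1a2 and 9816 for Col3a1. The read count of Col3a1 was 1.82, 1.76 and 1.91 times that of Col1a1 in KO ifetroban and 1.72 and 1.88 times in KO vehicle, against 1.68 and 1.52 in WT ifetroban and 1.41 and 1.76 in WT vehicle. KO libraries overlapped WT at the top. The difference of 0.19 on the log2 scale had an exact p of 0.0333 (two-sided permutation of genotype within treatment, 60 arrangements) and an adjusted p over 3 ratios of 0.05, which did not pass. For Col1a2 against Col1a1, whose products share 1 molecule, the ratio was 0.895, 0.835 and 1.05 in KO ifetroban and 0.798 and 1.03 in KO vehicle, against 1.15 and 1.12 in WT ifetroban and 1.14 and 1.09 in WT vehicle. Every KO library was below every WT library; the difference was -0.30 on the log2 scale, with the same exact p of 0.0333 and adjusted p of 0.05. Col4a2 against Col4a1 stayed between 0.749 and 0.857 in KO and between 0.758 and 0.855 in WT, with a difference of -0.01 (exact p = 0.867), although the level of both genes varied widely between libraries. The smallest p this permutation test can give is 0.0167. Adjusted over 3 ratios, a single ratio at that p reaches only 0.05, so it could not pass alone. Col1a2, Col3a1, Col4a1 and Col5a2 each overlap another gene model on their own strand (Gm43921, Gm47302, Gm44716 and Gm38211), so their counts, and ratios that hold them, are uncertain to the extent that shared reads were left out.

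**Figure D5:**
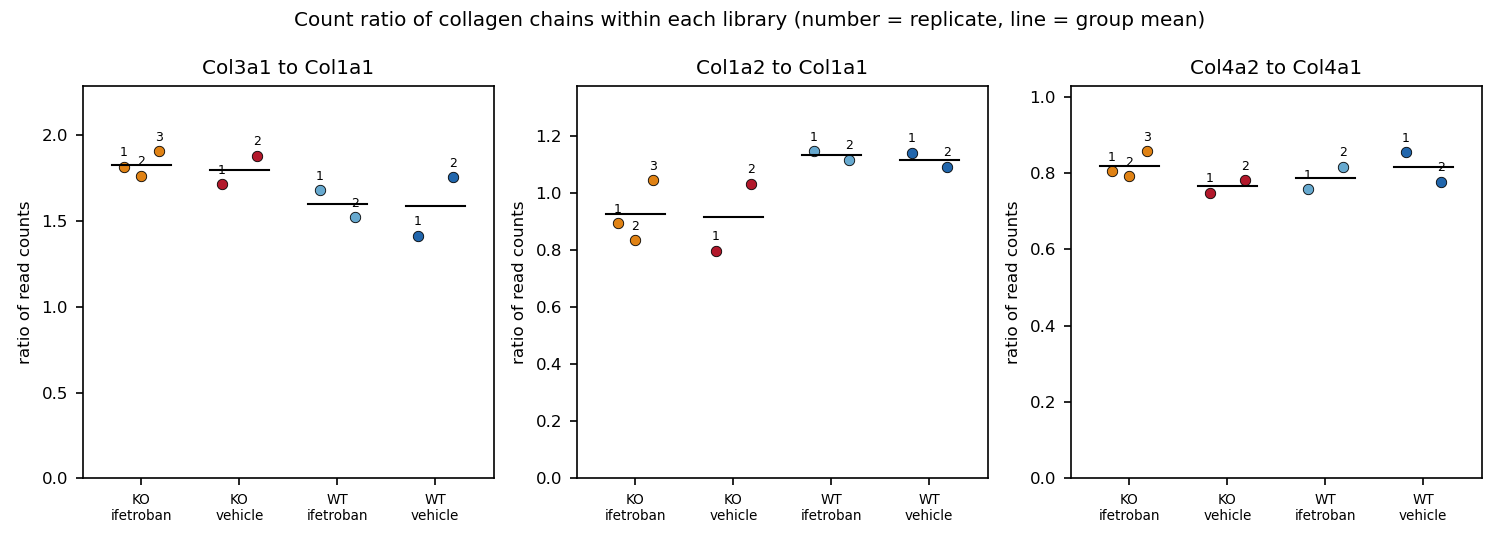
Ratio of read counts (vertical axis, from 0) of Col3a1 to Col1a1, Col1a2 to Col1a1 and Col4a2 to Col4a1 in each library, KO groups left of WT groups; numbers are replicates and lines are group means. The Col1a2 to Col1a1 ratio is 0.798 to 1.05 in KO and 1.09 to 1.15 in WT, and the Col4a2 to Col4a1 ratio covers nearly the same range in both genotypes.

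Genes that act on collagen were read from 5 lists, in the comparison of KO with WT averaged over treatments (edgeR, adjusted over all genes tested). These lists were chosen with earlier results of these data known, so their counts are descriptive. Beside the counts that follow, 49.5% of all genes tested were positive and 0.505% rose, with a median log2 fold change of -0.0036. Every call named from these lists was lost when either WT ifetroban library was left out. Lox, Loxl1 and Tgfb2 were still called in 3 of 9 such alternatives with 1 library left out, P4ha3 in 2, and Pcolce and Mmp8 in 1, without KO vehicle replicate 2. Of 13 tested genes of procollagen processing and cross-linking, 12 were positive and 3 rose, with a median log2 fold change of 0.72. Lox, the lysyl oxidase that starts cross-links between chains, had 22.1, 21.1 and 18.2 CPM in KO ifetroban and 62.3 and 17.9 CPM in KO vehicle, against 4.53 and 5.31 CPM in WT ifetroban and 4.004 and 5.80 CPM in WT vehicle. It rose by 2.54 ± 0.33 on the log2 scale (adjusted p = 0.0248), and KO vehicle replicate 1 stood above the other KO libraries. Its relative Loxl1 rose by 0.98 ± 0.13 (adjusted p = 0.0248), with 74.9 to 115 CPM in KO and 39.7 to 47.7 CPM in WT. Pcolce, which speeds the removal of the procollagen end piece, rose by 0.71 ± 0.12 (adjusted p = 0.0451), with 61.0 to 91.4 CPM in KO and 43.1 to 51.7 CPM in WT.

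Of 21 tested genes of collagen synthesis and secretion, 14 were positive and 1 rose, P4ha3, a prolyl hydroxylase subunit. It was rare, with 0.514 to 1.16 CPM in KO and 0.0384 to 0.155 CPM in WT (adjusted p = 0.0284). It passed the filter on low counts only through KO libraries, so a rise was built into its selection. Among the next smallest p values were those of P3h3, a prolyl hydroxylase, at 0.52 ± 0.14 and P4hb, the common hydroxylase subunit, at 0.49 ± 0.13, neither called. Of 13 regulators, 8 were positive and 1 rose: Tgfb2, a transforming growth factor known to induce collagen genes, had 18.1 to 38.5 CPM in KO and 8.89 to 9.50 CPM in WT, a rise of 1.44 ± 0.19 (adjusted p = 0.0248). Ccn2, a matricellular factor downstream of it, had a log2 fold change of 2.31 ± 0.43, and Scx, a transcription factor of tendon, 0.88 ± 0.24, neither called.

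Of 8 breakdown genes, 6 were positive and 1 rose, the collagenase gene Mmp8, which was rare, with 0.465 to 0.931 CPM in KO and 0.0384 to 0.232 CPM in WT (adjusted p = 0.0451). It too passed the filter only through KO libraries, and its call carries the same limit. Mmp14, a membrane collagenase, had a log2 fold change of 1.09 ± 0.27 and Ctsk, a collagen-cleaving cathepsin, 0.42 ± 0.26, neither called. Of 9 tested collagen receptors 7 were positive and none was called by edgeR; the smallest p values belonged to Lair1, an inhibitory receptor of leukocytes, at 0.92 ± 0.27, Ddr1, a collagen-binding kinase, at 0.38 ± 0.13, and Mrc2, an endocytic receptor, at 0.46 ± 0.18, all 3 under an unadjusted p of 0.05.

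Markers of cell types moved beside the collagens, and their part in the collagen differences was not tested. The marker lists were chosen with earlier results of these data known. Their counts beside the shares of all genes are therefore descriptive and no test. The 10 myofibroblast markers summed to 555 to 1013 CPM in KO and 201 to 269 CPM in WT; all 10 were positive and 6 rose (Postn, Cthrc1, Fn1, Tnc, Thbs4 and Ltbp2), where 49.5% of all genes were positive and 0.505% rose. Cthrc1 passed the filter only through KO libraries. With 1 library left out, Fn1 was still called in 1 of 9 alternatives and Thbs4 and Ltbp2 in 6, with the remaining 3 between; without WT ifetroban replicate 1 none was. The 10 macrophage markers summed to 604 to 804 CPM in KO and 286 to 405 CPM in WT, with 9 positive and 2 called, each in 1 of 9 such alternatives. Markers of resting fibroblasts overlapped, at 2061 to 2917 CPM in KO and 2049 to 2318 CPM in WT, with 11 of 12 positive and 1, Mfap5, called, again in 1 of 9. Endothelial markers, from cells that make much collagen IV, summed to 1333 to 1618 CPM in KO and 1364 to 1445 CPM in WT, with 6 of 10 positive and 0 called by edgeR. Pericyte and smooth muscle markers summed to 3784 to 5229 CPM in KO and 3364 to 3799 CPM in WT, with 6 of 10 positive. Cardiomyocyte markers summed to 53332 to 66162 CPM in KO and 68800 to 73884 CPM in WT, with 2 of 10 positive.

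The remaining marker lists were low. Markers of epicardium and mesothelium summed to 13.7 to 23.9 CPM in KO and 11.7 to 20.2 CPM in WT, those of valve and cartilage to 7.57 to 9.58 CPM in KO and 4.21 to 5.80 CPM in WT, those of Schwann cells to 18.1 to 21.5 CPM in KO and 16.7 to 21.6 CPM in WT, and those of atrium to 18.9 to 21.4 CPM in KO and 17.8 to 20.9 CPM in WT. No marker was at 0 in all libraries. Among the valve and cartilage genes, Acan, Chad, Hapln1, Matn1 and Matn3 were at 0 in some libraries, and Sox9 was called, in 1 of 9 alternatives with 1 library left out.

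Each of the 4 calls depended on single libraries. Leaving out any 1 of 7 libraries ended all 4. Leaving out KO ifetroban replicate 1 kept Col1a1 and Col5a2, and leaving out KO vehicle replicate 2 ended none. Except for KO ifetroban, each such fit leaves 1 library in a group. Calls over all genes moved too: 77 rose with all libraries, and 20, 3 and 6 without KO ifetroban replicates 1, 2 and 3. Without KO vehicle replicate 2, which leaves 1 library in its group, calls over all genes became more and not fewer. The library labelled WT vehicle replicate 1 is 1 of the 7, the others being WT vehicle replicate 2, both WT ifetroban libraries, KO vehicle replicate 1 and KO ifetroban replicates 2 and 3. Over these 9 alternatives the log2 fold change stayed between 0.83 and 1.04 for Col1a1, between 0.94 and 1.31 for Col3a1, between 0.84 and 1.08 for Col5a2 and between 0.79 and 1.09 for Col8a1. A filter of 1 CPM in 2 libraries in place of the usual one also ended all 4.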

How the data were processed

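The authors deposited raw read counts per gene, whole numbers without normalization, in the 4-column layout of STAR's gene quantification, as seen in the files; per the submitters' processing notes, STAR 2.5.2b, HTSeq and the build GRCm38 were used, and the annotation release is not given in the sources used here. Counts on the reverse strand were used, since that column exceeded the forward one 14.5 times; the 4 rows that name no gene (26.6% to 31.9% of reads) were left out. Symbols, exon lengths and coordinates (counted from 1, GRCm38) came from GENCODE and were found for 49412 of 49671 identifiers.

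The test was edgeR's quasi-likelihood test (edgeR 4.0.16, R 4.3.3), with TMM normalization, filterByExpr with a minimum count of 10 (0.401 CPM, in as many libraries as the smallest group has) and 1 coefficient per group over all 9 libraries. It covered 15261 genes, Benjamini-Hochberg adjustment ran over all of them, and genes with an adjusted p below 0.05 count as called. Fold changes carry a prior count of 0.125, standard errors are approximate, being derived from the F statistic, and the fit was checked on simulated counts. CPM uses TMM library sizes. Alternatives were DESeq2 1.42.0, other filters, scalings and length corrections, unstranded counts, a replicate block, and libraries left out.

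Collagen genes given in every library were the 12 highest by mean RPKM, those called, and the 2 with the smallest p per class in KO vehicle against WT vehicle and in the averaged genotype effect. From the other lists the called genes and the 3 with the smallest p are named. Col5a3, Col6a3, Col14a1, Col18a1 and others given by range were named after their values were seen. The members and lists were chosen with earlier results of these data known. No library was a copy of another of its group (chi-square per degree of freedom of at least 14.4).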

Additional observations from a re-analysis of the deposited data

How the results depend on the processing

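Counts of called collagen genes moved more than fold changes did. For KO vehicle against WT vehicle the count of 0 became 7 with DESeq2, 11 without a filter and 4 with length offsets. With the replicate block it became 2. Over all genes these settings called, in that order, 325, 891, 16 and 39 as higher and 48, 304, 2 and 6 as lower. They covered 15261 genes, or 27246 without a filter. The count also moved without KO vehicle replicate 2, which leaves 1 library in that group. For KO ifetroban against WT ifetroban 0 became 3 without a filter, where 382 of 27246 genes were called higher and 46 lower. Averaged over treatments, 4 became 9 with DESeq2, 13 without a filter (11 higher and 2 lower, where 1193 and 491 of 27246 genes were called), 0 with a filter of 1 CPM in 2 libraries, 8 with length offsets, 0 when the library labelled WT vehicle replicate 1 was left out together with KO vehicle replicate 1, and 0 to 10 when 1 replicate was left out. For ifetroban within KO, leaving out 1 replicate changed the count only without KO vehicle replicate 2, which leaves 1 library in that group. Averaged over treatments, RLE scaling and a term for length class gave 3 each, unstranded counts 4 and the replicate block 5. Over all genes these settings called, in that order, 57, 7, 74 and 428 as higher and 5, 2, 6 and 103 as lower. In the same comparison DESeq2 called 643 as higher and 111 as lower, and length offsets 129 and 13, each of 15261 genes. The filter of 1 CPM in 2 libraries called 29 and 4 of 13377. The highest collagen count with 1 replicate left out came without KO vehicle replicate 2, where calls over all genes also became more. That fit leaves 1 library in its group, and the fit without both named libraries leaves 1 in each vehicle group. RLE scaling and the term for length class each lost Col8a1 and kept Col1a1, Col3a1 and Col5a2.

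Directions turned for collagen IV. Without both of those libraries the averaged log2 fold change was -0.14 for Col4a1 and -0.11 for Col4a2, and that of KO vehicle over WT vehicle -0.39 and -0.38. With 1 replicate left out, the averaged value lay between 0.03 and 0.69 for Col4a1, 0.03 and 0.67 for Col4a2 and -0.28 and 0.073 for Col4a5; within vehicle it lay between -0.06 and 1.27 for Col4a1, -0.11 and 1.17 for Col4a2 and -0.54 and 0.18 for Col4a5. With the length-class term Col4a5 turned to 0.15 averaged and 0.14 within vehicle. The Col4a2 to Col4a1 ratio turned to 0.0054 with unstranded counts and to 0.044 without both libraries, and lay between -0.036 and 0.022 when 1 replicate was left out. Permuted without regard to treatment, the ratios of Col3a1 (0.19) and Col1a2 (-0.30) to Col1a1 passed (exact permutation test, adjusted p = 0.0357). The cause of each shift was not tested.

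The labels do not give same-numbered libraries as pairs, and they were not taken as pairs. Deviations of same-numbered libraries from their group means correlated at 0.0011 to 0.478. Libraries of different numbers were not set beside them, so these values cannot decide whether the numbers mark pairs. Depth limits the rare chains: Col25a1 had 71 reads in all libraries.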
